A study of Mus musculus with 12 samples.

Results

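Glycinergic amacrine cells, inhibitory interneurons of the inner retina, made up 705 of the 24772 mouse retinal cells with at least 200 detected genes. A cell was counted as one when it held a unique molecular identifier (UMI, 1 counted transcript) of SLC6A9 and of at least 1 of TFAP2A, TFAP2B, SLC32A1 and PAX6, and none of GAD1, GAD2 or RLBP1. The cells were thus chosen by measured values, so the levels of these genes describe the choice and are no result. Just inside the limits, 284 members held a single SLC6A9 UMI, 297 held only 1 of the 4 amacrine genes and 15 had fewer than 300 detected genes. Just outside, 467 cells had SLC6A9 but no amacrine gene, 106 had both but also RLBP1, and 235 had both but also GAD1 or GAD2, of which 105 held only 1 such UMI.

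The cells came from pups of the C57B6 strain, with no further allele or agent named in the labels, sampled at postnatal day 14 (P14) or 17 (P17) and profiled by Drop-seq. Pups of the oxygen-induced retinopathy groups (OIR) were kept in 75% oxygen between days 7 and 12, were raised by a foster mother and had room air from then on. Control pups (NORM) had room air throughout and stayed with their own mother, so the change of mother cannot be told apart from the oxygen. Retinas were taken whole or after rods had been depleted. The 12 libraries form 8 groups: P14 NORM rod-depleted (1 library, 54 members), P14 NORM whole retina (1 library, 107 members), P14 OIR rod-depleted (2 libraries, 27 and 61 members), P14 OIR whole retina (3 libraries, 31, 54 and 54 members), P17 NORM rod-depleted (1 library, 90 members), P17 NORM whole retina (1 library, 8 members), P17 OIR rod-depleted (1 library, 53 members) and P17 OIR whole retina (2 libraries, 114 and 52 members). Nothing in the labels ties a library to its own animals, and every p-value here is taken against the spread between libraries, which may be only technical.

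SLC6A9 encodes the plasma membrane glycine transporter that refills these cells with glycine, and SLC32A1 the transporter that loads glycine or GABA into synaptic vesicles. TFAP2A, TFAP2B and PAX6 are transcription factors of amacrine cells, and GAD1 and GAD2 make GABA, the transmitter of the other large amacrine class. Most glycinergic amacrine cells are narrow and carry signals between the layers of the inner plexiform layer. The best known, the AII cell, takes rod signals from rod bipolar cells and passes them through gap junctions built from connexin 36 (GJD2) into the cone pathway. In OIR, high oxygen halts the growth of retinal vessels, and the return to room air leaves the inner retina short of oxygen.

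The 705 members held 1495376 UMIs, with a median of 1654 UMIs and 1118 genes per cell. Median depth per library ran from 845 to 3304 UMIs per member, and the deepest library was P17 OIR whole retina replicate 1. No member barcode recurred in another library. Gene tests used the 11 libraries with at least 20 members, so the 8 cells of P17 NORM whole retina were left out and the only P17 NORM library tested was rod-depleted. By the run labels, a NORM and an OIR library shared a run only at P14: once in the rod-depleted fraction (OIR replicate 2) and once in whole retina (OIR replicate 1). Both P17 OIR whole-retina libraries lack a run label, so their runs are not known. Other types' RNA was measured in the members. In the 11 libraries tested, the summed level of 15 rod genes ran from 3.91 to 21.2 UMIs per 10000 in NORM and from 4.74 to 142 in OIR, and that of 12 Müller genes from 6.59 to 67.6 and from 8.25 to 88.0. In the 8 members of P17 NORM whole retina the rod sum was 342, above the 11 tested libraries, and the Müller sum 45.9. Summed starburst, microglia, vessel and astrocyte markers stayed at or below 2.46 UMIs per 10000 in each of the 11 libraries. XIST, the RNA that coats the inactive X chromosome of female cells, was at 0 in the members of P14 OIR rod-depleted replicate 1, P14 OIR whole retina replicate 3, P17 NORM whole retina and both P17 OIR whole-retina libraries, and at 19.9 to 51.4 UMIs per 10000 in the other 7; the sex of the pups is not given in the labels.

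Markers that the rule did not use gave a mixed account of the label. With every cell thinned to 500 UMIs, GJD2 was found in 22.4% of members, against 2.66% of GABA-marked amacrine cells (chosen alike but with GAD1 or GAD2 and no SLC6A9), 2.75% of rod-marked cells, 2.67% of bipolar-marked cells and 1.10% of Müller-marked cells. NEUROD2, a transcription factor of part of the glycinergic class, was found in 7.40% of members, 0.429% of GABA-marked cells and 0.492% of rod-marked cells. The share in rod-marked cells, whose median depth was 839.5 UMIs against 1654 in members, is taken as what free RNA gives, and the shares of GJD2 and NEUROD2 in members lay above it. PROX1 was found in 29.0% of members and 4.21% of GABA-marked cells but in 38.4% of bipolar-marked cells, so it does not tell members from bipolar cells. Without thinning, SLC6A5, the neuronal glycine transporter of many glycinergic neurons, was found in 11.8% of members and 6.96% of GABA-marked cells.

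A group of 63 members (8.94%) went against the amacrine label. These cells held at least 4 of 8 genes, DAPL1, CRHBP, OPTC, FBLN1, COL9A3, SPARC, IGFBP2 and PTN, while 641 of the other members held 2 or fewer. The 8 genes and the limit were chosen after their values were seen. All 63 held DAPL1, SPARC and APOE, and 93.7% held GLUL, the glutamine synthetase of Müller glia. TFAP2B was found in 6.35% of them, SLC32A1 in 1.59% and TFAP2A in none, so PAX6, found in 96.8%, admitted nearly all. Only 3 of the 1221 GABA-marked cells carried the same set. The 63 cells made up 44 of 285 rod-depleted members and 19 of 420 whole-retina members, with a range over libraries of 9.26% to 40.7% in the rod-depleted and 0% to 13.0% in the whole-retina fraction. They are called DAPL1-set cells below, and the results that turn on them are also given without them; that alternative was chosen after seeing the data.

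Grouping the 705 members by their expression gave 10 clusters, described here with no test because the same genes formed them. Clusters 1, 2 and 4, with 151, 104 and 68 cells, held the most GJD2 and are called AII-like on that marker. Together they held 323 members (45.8%). GJD2 was found in 70.9%, 95.2% and 54.4% of their cells, PROX1 in 68.9%, 93.3% and 55.9%, and DAB1, an adaptor of reelin signalling, in 51.0%, 85.6% and 42.7%. The other listed AII markers were less even: NFIA was found in 33.1%, 65.4% and 22.1%, and CALB2 in 61.6%, 78.9% and 23.5%. Apart from GJD2 (2.22%), cluster 8 held these markers too, with PROX1 in 64.4%, DAB1 in 51.1% and CALB2 in 62.2%, though NFIA in 4.44%. Cluster 9, led by bipolar genes, held PROX1 in 59.5%, DAB1 in 40.5%, NFIA in 24.3% and CALB2 in 32.4%, with GJD2 in 18.9%. CALB2 was also found in 53.7% of cluster 3 and 45.0% of cluster 6. Of the AII markers, only GJD2 thus set cluster 4 apart from the clusters not called AII-like. Cluster 1 was led by SCT, CAR2 (carbonic anhydrase, 101 UMIs per 10000 against 23.6 in the other members), FGF1 and CALB1. Cluster 2 was led by DNER and TNNT2, and 101 of its 104 cells came from whole retina, where members were deeper; its median was 3341 UMIs. Cluster 4 was led by EPHA8 and ADCY5 and was shallow, at a median of 812.5 UMIs.

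The other clusters stay without a name, because fewer than 3 markers of any further subtype were on the list. Cluster 3 (95 cells) was led by IGF1 (10.6 against 0.395 UMIs per 10000), TFAP2C, the peptide gene CARTPT (9.83 against 0.592), NFIX and CRABP1; TFAP2B was in 1.05% of it and EBF3, a transcription factor of small glycinergic cells, in 37.9%. Cluster 8 (45 cells) was led by PPP1R17, found in 77.8% of its cells against 10.5% of the others, with IGFBP5, TSHZ2 and KRT24, and 57.8% of it held EBF3. NEUROD6 was found in 17.8% of it and in at most 1.67% of any other cluster. PPP1R17 and NEUROD6 were listed as markers of amacrine cells that are neither GABAergic nor glycinergic, so the glycinergic label is uncertain for cluster 8. Cluster 7 (60 cells) was led by HPGD (8.15 against 0.0338 UMIs per 10000), CAR3 and the AMPA receptor subunit GRIA1, and 18.3% of it held SLC17A8, the vesicular glutamate transporter of a glycine and glutamate releasing amacrine type. Cluster 6 (60 cells) was led by GAS7, GAP43 and the muscarinic receptor CHRM2. Clusters 5, 9 and 10, 122 cells in all, were led by other genes than amacrine ones: the DAPL1 set, bipolar genes (PCP2, SEBOX and CABP5, with TRPM1 in 62.2% of 37 cells) and rod genes. Cluster shares differed between fractions: cluster 8 held 44 of 420 whole-retina members and 1 of 285 rod-depleted members, and cluster 4 held 17 and 51.

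**Figure D1:**
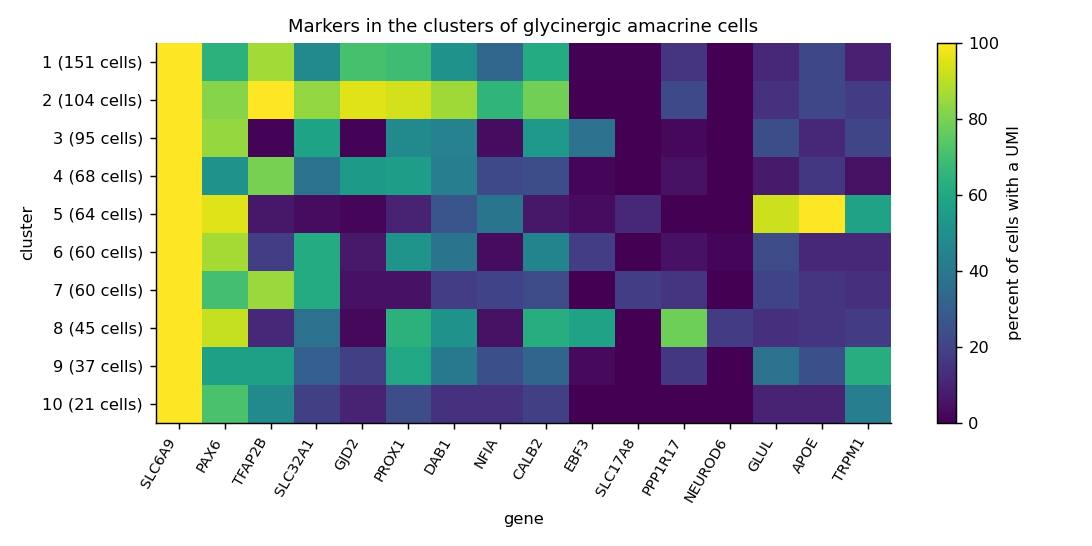
Percent of cells with at least 1 UMI (colour, 0 to 100) of 16 marker genes (columns) in the 10 clusters of members (rows, with their numbers of cells). GJD2 is brightest in cluster 2 (95.2%), PPP1R17 in cluster 8 (77.8%) and APOE in cluster 5.

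Averaged over the 11 libraries, the transcript with the highest level was the nuclear RNA MALAT1, at 189 ± 90.2 UMIs per 10000 (SD, n = 11), and MT-CYTB stood at 90.2 ± 44.2. CAR2 stood at 41.4 ± 19.4, the calcium sensor of vesicle release SYT1 at 28.5 ± 8.93 and CPLX3, the complexin of ribbon and AII synapses, at 21.3 ± 4.73. SLC6A9 itself stood at 15.4 to 27.2 UMIs per 10000 in the 3 NORM libraries and at 13.0 to 24.5 in the 8 OIR libraries. These levels count UMIs from 3' ends, which depend little on transcript length.

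Against GABA-marked amacrine cells of the same 10 libraries, members held more LAMP5, CAR2, GJD2 and PROX1 and less MEIS2 and NPY. The classes were split by expressed genes, so this is a description with no test. LAMP5, a lysosome-associated membrane protein of some inhibitory neurons, averaged 17.5 UMIs per 10000 in members and 1.29 in GABA-marked cells, and it was higher in members in 10 of 10 libraries. CAR2 averaged 43.6 and 4.44, GJD2 6.43 and 0.712, and TGFB2 2.94 and 0.232. The stem cell receptor gene LGR5 averaged 2.13 and 0.183. In the other direction, the transcription factor MEIS2 averaged 0.570 in members and 7.36 in GABA-marked cells, and the peptide genes NPY and TAC1 0.389 and 5.43, and 0.220 and 2.98. The differences of APOE, MFAP4 and PTGDS leaned on the DAPL1-set cells: without them the mean of APOE in members was 1.72 in place of 13.0, that of MFAP4 0.0913 in place of 1.18 and that of PTGDS 1.29 in place of 3.22.

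The share of cells that were glycinergic was near 1 to 2 in 100 and did not pass the test for oxygen, age or fraction. Because the rule needs a detected UMI, every cell was thinned to 500 UMIs and shallower cells were left out, which left 5 to 58 members per library. The share was 1.92%, 1.56%, 2.39% and 2.17% in the 4 NORM libraries (P14 whole, P14 rod-depleted, P17 rod-depleted and P17 whole). In the 8 OIR libraries it ran from 0.769% to 1.75%. The means were 2.01% ± 0.357 (SD, n = 4) and 1.37% ± 0.378 (n = 8), a difference of -0.600 percentage points within age and fraction (two-sided exact permutation p = 0.0694 over 72 arrangements, of which the smallest possible is 0.0139; adjusted over 3 comparisons 0.208). The groups overlapped: 3 OIR libraries, at 1.68%, 1.71% and 1.75%, lay above the lowest NORM library. Unthinned, the shares were 3.02% ± 1.28 and 2.53% ± 0.703. P17 minus P14 gave 0.373 points (exact permutation p = 0.242), a sign that turned to -0.351 without thinning, and rod-depleted minus whole gave 0.0385 points (exact permutation p = 0.842).

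The balance of glycinergic to GABA-marked amacrine cells differed between the fractions. GABA-marked cells made up 0.414% to 1.29% of rod-depleted libraries and 3.91% to 6.79% of whole-retina libraries at 500 UMIs, groups that do not overlap. The log2 ratio of glycinergic to GABA-marked cells was 0.63 ± 0.26 (SD, n = 5) in rod-depleted and -1.71 ± 0.47 (n = 7) in whole-retina libraries. It was above 0 in 5 of 5 rod-depleted and below 0 in 7 of 7 whole-retina libraries. The difference within age and oxygen was 2.22 (two-sided exact permutation p = 0.00833, the smallest that 120 arrangements can give; adjusted over 3 comparisons 0.025). Without thinning, there were 1.23 to 2.46 glycinergic cells per GABA-marked cell after rod depletion and 0.283 to 0.489 in whole retina. By the run labels, which both P17 OIR whole-retina libraries lack, only the pair of P17 NORM libraries shares a run between fractions. There the log2 ratio was 0.91 in rod-depleted and -0.85 in whole retina. The whole-retina value rested on 5 glycinergic and 9 GABA-marked cells. Without thinning the pair gave 0.848 and -1.755, and at 300 UMIs 0.4005 and -2.115.

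**Figure D2:**
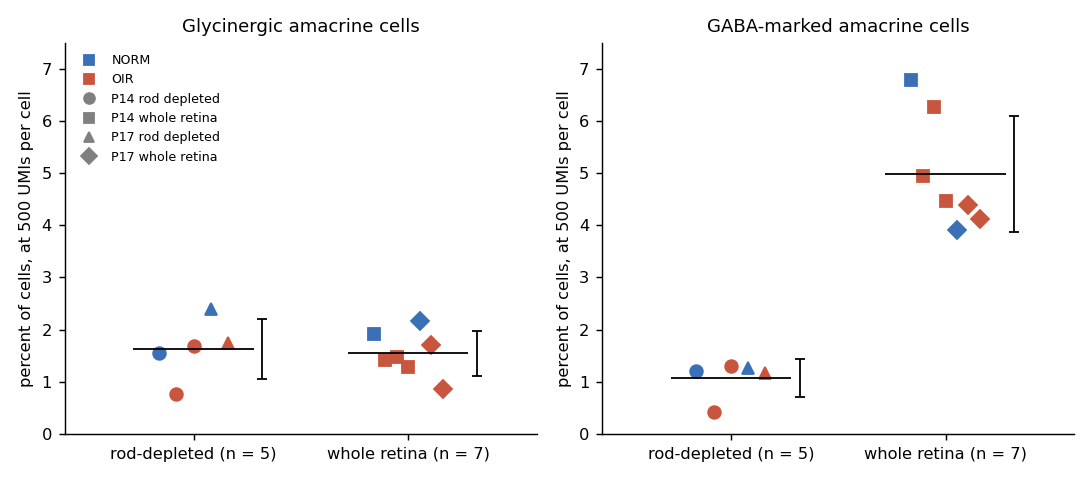
Percent of cells, all thinned to 500 UMIs, that were glycinergic (left) or GABA-marked (right) in each library, by fraction; lines are means and bars 1 SD over 5 rod-depleted and 7 whole-retina libraries. The glycinergic shares of both fractions cover the same range, while GABA-marked shares lie at or below 1.29% after rod depletion and at or above 3.91% in whole retina.

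Oxygen changed no gene past the threshold when all members were used, and the metallothionein genes MT2 and MT1 came nearest. Metallothioneins are small cysteine-rich proteins that bind zinc and copper and are induced by metals, glucocorticoids and oxidative stress. Of 8072 genes tested with limma, 0 (0%) passed a Benjamini-Hochberg adjusted p of 0.05, and 379 had an unadjusted p under 0.05. Both genes lie side by side on chromosome 8 (GRCm38, GENCODE annotation): MT2 at 94172664 to 94173568 and MT1 at 94179082 to 94180327, both protein coding on the plus strand. The 250 bases before each RefSeq start on GRCm38.p6, which for both genes differs from the GENCODE start, are shown because the 2 neighbours were the genes of smallest p for oxygen.
MT2, chr8:94172368-94172617, plus strand: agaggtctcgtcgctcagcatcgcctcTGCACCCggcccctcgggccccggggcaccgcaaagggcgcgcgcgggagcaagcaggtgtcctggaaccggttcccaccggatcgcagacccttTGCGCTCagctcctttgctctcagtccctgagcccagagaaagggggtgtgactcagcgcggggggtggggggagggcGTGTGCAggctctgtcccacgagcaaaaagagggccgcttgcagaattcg
MT1, chr8:94178839-94179088, plus strand: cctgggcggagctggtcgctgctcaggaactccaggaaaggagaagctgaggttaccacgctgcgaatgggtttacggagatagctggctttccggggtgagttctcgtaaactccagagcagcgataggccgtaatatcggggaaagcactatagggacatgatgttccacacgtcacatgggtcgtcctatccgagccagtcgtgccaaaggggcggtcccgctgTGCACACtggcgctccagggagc
Capitals mark matches, on either strand, to TGCACNC or TGCGCNC, the core letters of the metal response element. Within these 250 bases, MT2 had 3 matches and MT1 had 1, near the end of its window. Bases past the window were not counted, so these are not totals for either promoter. Of 32851 RefSeq mouse promoters of this length, 21.4% had at least 1 match and 1.26% at least 3. ACGTG, the core of the hypoxia response element, had 1 match in MT1 and 0 in MT2, and 16.6% of promoters had at least 1. A match is a run of letters and not a shown site.

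MT2 stood at 0.964, 0.116 and 0 UMIs per 10000 in the NORM libraries (P14 rod-depleted, P14 whole, P17 rod-depleted). In OIR it stood at 2.21 and 2.49 in the P14 rod-depleted libraries, at 2.12, 1.23 and 0.594 in the P14 whole-retina libraries, at 2.54 in the P17 rod-depleted library and at 1.01 and 4.47 in the P17 whole-retina libraries. The highest NORM value was exceeded in 7 of the 8 OIR libraries but not in P14 whole retina replicate 3. The means were 0.360 ± 0.526 (SD, n = 3) and 2.08 ± 1.21 (n = 8), and the fitted difference was 2.44 ± 0.47 (SE) on the log2(value + 0.2) scale, with an adjusted p of 0.0572 from limma. Without the DAPL1-set cells the difference was 2.62 ± 0.48 with an adjusted p of 0.00483 (limma, Benjamini-Hochberg over 7876 genes). In the same-run pairs, OIR minus NORM was 1.21 in rod-depleted and 2.88 in whole retina on that scale.

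MT1 stood at 4.42, 1.18 and 4.73 UMIs per 10000 in the same NORM libraries. Its OIR levels were 5.20 and 7.03 in P14 rod-depleted, 11.9, 6.62 and 6.30 in P14 whole, 14.2 in P17 rod-depleted, and 5.07 and 12.7 in P17 whole retina. On these means over members, all 8 OIR libraries lay above all 3 NORM libraries, as did 28 of the 8072 genes (0.347%). The means were 3.44 ± 1.97 (SD, n = 3) and 8.62 ± 3.67 (n = 8). The difference was 1.48 ± 0.33 (SE, log2) with an adjusted p of 0.254 from limma, and 1.65 ± 0.32 with an adjusted p of 0.00699 without the DAPL1-set cells. MT1 and MT2 were then the only genes called, 2 of 7876 (0.0254%). Same-run pairs gave 0.65 and 3.13. MT1 was also among the 15 leading genes of cluster 1, at 12.2 UMIs per 10000 against 4.67 in the other members. Cluster 1 held 52.8% of P17 OIR rod-depleted members and 12.2% of P17 NORM rod-depleted members. In the P17 OIR whole-retina libraries it held 0.877% and 7.69%. The part of cluster makeup in the MT1 difference was not tested. With all members, the MT1 difference leaned on the low P14 NORM whole-retina library: without it MT1 had a log2 difference of 0.853 (adjusted p 0.809, limma) and MT2 2.42 (adjusted p 0.597). With UMIs summed over members, the MT1 difference was 1.08 (adjusted p 0.988, limma), and the groups overlapped. On summed UMIs, P14 OIR rod-depleted replicate 1 (3.45) and P17 OIR whole-retina replicate 1 (4.98) lay below both rod-depleted NORM libraries (5.23 and 5.35).

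**Figure D3:**
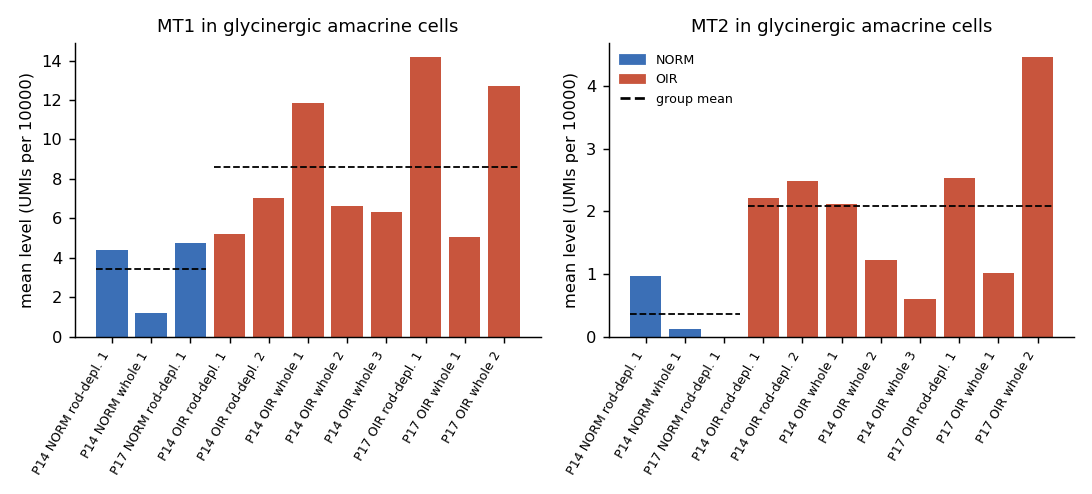
Mean level of MT1 (left) and MT2 (right) in UMIs per 10000 in the members of each of 11 libraries, with group means as broken lines. All 8 OIR bars of MT1 exceed the highest NORM bar (4.73), and MT2 is 0 in the P17 NORM library.

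At P17, MT2 was not detected in the control members. No MT2 UMI was seen among 150184 UMIs pooled over P17 NORM members, whereas P17 OIR members held 128 among 655821. The pooled level was thus at least 9.77-fold higher in OIR (against a floor of 3 UMIs over the NORM group, counting error only). The pools mix fractions and libraries, and the NORM pool includes the 8 whole-retina members that the fits left out. The bound does not hold for each library. On summed UMIs, P17 OIR whole-retina replicate 1 stood at 1.001 per 10000, below the pooled 1.952. In the rod-depleted fraction, with 1 library on each side, the bound was 14.85-fold (32 among 102047 against 0 among 142034). The fitted oxygen effect at P17 was 4.24 ± 0.78 (log2) with an adjusted p of 0.0332, and MT2 was the 1 gene of 8072 (0.0124%) that rose at that age. At P14 the effect was 1.63 ± 0.53 (adjusted p 0.991), and 0 genes (0%) were called, with 346 at an unadjusted p under 0.05. The difference between the ages was 2.61 ± 0.93 with an adjusted p of 0.997, all from limma, so the ages were not shown to differ. The P17 control is a single library, and the P17 call ended when any of P14 OIR rod-depleted replicates 1 or 2, P14 OIR whole-retina replicates 2 or 3, P17 OIR rod-depleted or P17 OIR whole-retina replicate 2 was left out (adjusted p 0.0584 to 0.156). MT2 also missed the threshold at P17 with cells thinned to 500 UMIs (adjusted p 0.482) and with a pseudocount of 1 (0.387). CHCHD10, a mitochondrial intermembrane space protein named after its values were seen, gave 3.14 ± 0.65 at P17 (adjusted p 0.124), and 3.60 ± 0.70 (adjusted p 0.00886, limma) without the DAPL1-set cells.

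In GABA-marked amacrine cells, MT1 ran from 0.801 to 6.27 UMIs per 10000 in 4 NORM libraries and from 1.59 to 9.07 in 7 OIR libraries, ranges that overlap. MT2 ran from 0.00790 to 0.819 and from 0.227 to 2.90, ranges that overlap too. In P17 rod-depleted libraries MT2 was lower in OIR (0.310) than in NORM (0.819). In both P14 fractions it was higher in OIR, and in P17 whole retina NORM stood at 0.380 and OIR at 0.339 and 1.02. The oxygen difference in members minus that in GABA-marked cells was 0.29 ± 0.39 for MT1 (adjusted p 0.91) and 1.40 ± 0.68 for MT2 (adjusted p 0.768, limma). No gene of 8226 (0%) passed for this difference, with 534 at an unadjusted p under 0.05, so neither gene was shown to differ in its response from the other amacrine class.

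The remaining genes with the smallest oxygen p did not pass the test and are given as values. RRBP1, a ribosome-binding protein of the endoplasmic reticulum, stood at 0.349 to 0.548 UMIs per 10000 in NORM and 0.743 to 3.49 in OIR, and the cyclin CCNL1 at 0.217 to 0.626 and 0.677 to 2.75; both had every OIR library above every NORM library. The chromatin protein HMGB2 stood at 0.0245 to 0.199 and 0.435 to 2.37, and the Ras regulator RASAL2 at 0 to 0.291 and 0.470 to 1.46, also without overlap. CARTPT, a leading gene of cluster 3, stood at 2.48, 0.689 and 7.86 in NORM and at 0 to 2.27 in OIR (log2 -2.25 ± 0.58, adjusted p 0.653, limma). It was called when members needed at least 2 SLC6A9 UMIs (-3.47, adjusted p 4.84e-05), with libraries weighted by cells (-2.28, adjusted p 0.00806) and without P14 OIR whole-retina replicate 1 (-2.59, adjusted p 0.0155). Cluster 3 itself held 27 of the 90 P17 NORM rod-depleted members and 7.55%, 0% and 1.92% of members in the 3 P17 OIR libraries. At P14 the shares overlapped, at 20.4% and 14.0% in NORM and 9.26% to 18.5% in the 5 OIR libraries. HSPA8, a constitutive chaperone, was at 0.664 in P14 NORM whole retina and at 7.58 to 16.2 in the other 10, and its sign turned (-0.16) without that library.

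Lists of genes chosen for this tissue are described by counts beside the median of all 8072 genes, -0.05 for OIR minus NORM. Immediate early genes, induced within minutes of stimulation or dissociation, had a median log2 difference of 0.95 over 17 tested members, 16 higher and 1 lower, with 0 called and 9 at an unadjusted p under 0.05. JUN gave 1.09 ± 0.39 and JUNB 1.20 ± 0.36 (adjusted p 0.972 and 0.719, limma). Without the DAPL1-set cells JUNB gave 0.05 ± 0.54, FOS 0.07 ± 0.37 in place of 0.74 ± 0.36, and JUN 0.91 ± 0.46. The 15 immediate early genes then tested had a median of 0.39, 12 higher and 3 lower, with 0 called and 1 at an unadjusted p under 0.05; the same 15 had a median of 0.95 with all members. With all members JUNB stood at 0.806 to 3.99 in NORM and 1.28 to 9.83 in OIR, with 2 of 8 OIR libraries above the NORM range. The 20 hypoxia genes tested had a median of 0.15, 11 higher and 9 lower with 0 called. BNIP3, a hypoxia-inducible mitophagy receptor, stood at 1.997, 2.51 and 2.64 in NORM and at 2.70 to 9.57 in OIR, without overlap, with a difference of 0.96 ± 0.32 and an adjusted p of 0.933 (limma). Same-run pairs gave 0.10 and 1.34 for BNIP3. The 8 members of P17 NORM whole retina, too few for the tests, had a BNIP3 level of 10.1, above all 11 libraries.

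Glycolysis genes (21 tested) had a median of 0.04, with 11 higher and 10 lower. Nuclear-encoded respiratory chain genes (42 tested) had a median of -0.17, with 37 lower and 5 higher. ATP5E, a subunit of ATP synthase, had every OIR library (3.05 to 4.51) below every NORM library (4.71 to 8.39), as did 39 of 8072 genes (0.483%). Interferon and antigen presentation genes (10 tested) had a median of 0.74 and 9 higher. The 18 metal and antioxidant genes had a median of 0.02, 9 higher and 9 lower. Neuronal lists had medians below that of all genes: glycine and GABA transmission -0.54 (5 higher, 9 lower), amacrine transcription factors -0.41 (5 and 11), vesicle release -0.20 (5 and 13) and calcium-binding proteins -0.24 (4 and 10). The 5 AII markers had a median of -0.07. No member of any of these lists was called with all members. Without the DAPL1-set cells the medians of 2 of these lists, over the genes then tested, changed sign: AII markers 0.04, and metal and antioxidant genes -0.15 (5 higher and 12 lower, with MT1 and MT2 called). The 17 metal and antioxidant genes tested both ways already had a median of -0.01 with all members, so the sign of that list did not change on the same genes. The 5 AII markers were tested both ways, so their sign did. The 20 glycolysis genes tested both ways had medians of -0.02 with all members and 0.05 without those cells. Rod markers had a median of 0.63 (15 of 15 higher, 0 called) and bipolar markers one of -0.88 (2 higher, 8 lower, 0 called); their part in the results was not tested.

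Between P14 and P17 4 genes rose (0.0496% of those tested) and 2 fell (0.0248%) in the members, 6 of 8072 (0.0743%), and the 2 with the largest rise belong to other retinal types. GNGT2, the gamma subunit of cone transducin, stood at 0 to 0.425 UMIs per 10000 in the 7 P14 libraries (median 0.0701) and at 3.71, 0.653, 3.12 and 0.801 in the 4 P17 libraries. It rose by 2.73 ± 0.47 (log2, adjusted p 0.00726 from limma), and no libraries overlapped. The call ended without P17 NORM rod-depleted (2.15, adjusted p 0.177) or P17 OIR whole-retina replicate 1 (2.42, adjusted p 0.0986). PCP2, a G protein modulator of bipolar cells, had a P14 median of 0.736 with 1 high library (NORM rod-depleted, 10.98) and stood at 3.97 to 12.3 at P17, a rise of 2.31 ± 0.44 (adjusted p 0.0119, limma). It ended without P14 OIR rod-depleted replicate 1 or either P17 OIR whole-retina library (adjusted p 0.0839 to 0.0865). The summed level of 8 cone markers in the members was 1.34 to 5.38 at P14 and 4.30 to 18.9 at P17, that of 12 bipolar markers 3.68 to 25.1 and 10.04 to 28.9; their part in these results was not tested. All 7 cone markers tested and 15 of 15 rod markers were higher at P17, with 1 and 0 called.

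SNHG11, a host transcript of small nucleolar RNAs that is abundant in neurons, stood at 7.12 to 21.8 at P14 and at 24.6, 35.9, 33.4 and 21.0 at P17. It rose by 1.23 ± 0.24 (adjusted p 0.0119, limma), with 1 overlapping library on each side. P17 OIR whole-retina replicate 1 and the P17 and P14 replicate 1 OIR rod-depleted libraries each ended this call when left out (adjusted p 0.0502 to 0.265). A930011O12RIK, an RNA with no settled role, stood at 3.30 to 5.96 at P14 and 6.28 to 15.4 at P17, without overlap (1.24 ± 0.26, adjusted p 0.0286, limma), but it kept the call in only 4 of 11 fits that each left out 1 library (adjusted p up to 0.455). GM26924, listed with no position here, fell by 1.55 ± 0.28 (adjusted p 0.00747, limma), with levels of 3.45 to 14.6 at P14 and 2.23 to 4.98 at P17; without P17 OIR whole-retina replicate 1 its adjusted p was 0.0724. ATF3, a stress-induced transcription factor, fell by 2.63 ± 0.49 (adjusted p 0.0119, limma): it stood at 0.210 to 8.71 at P14 and at 0 to 0.157 at P17. The high ATF3 value came from P14 OIR rod-depleted replicate 1, the library with the largest share of DAPL1-set cells, and without those cells the ATF3 difference was -0.96 ± 0.49 with an adjusted p of 0.817. The ATF3 call also ended without that library, P17 OIR rod-depleted or P17 OIR whole-retina replicate 1 (adjusted p 0.0724 to 0.0874). Without them 5 genes of 7876 (0.0635%) were called: GNGT2, PCP2, SNHG11 and GM26924 again, and TRPM1, a bipolar channel gene.

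**Figure D4:**
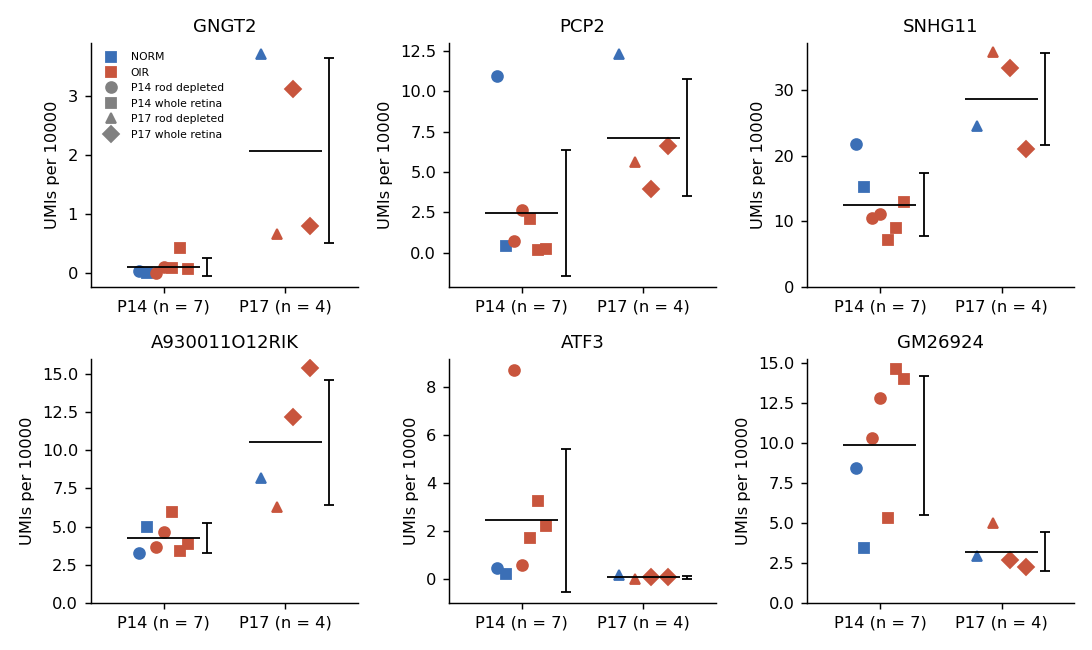
Mean level in UMIs per 10000 of the 6 genes called between P14 (7 libraries) and P17 (4 libraries) in the members of each library; lines are means and bars 1 SD. GNGT2 and A930011O12RIK have no overlap between ages, and ATF3 at P14 is spread from 0.210 to 8.71.

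Rod depletion gave the largest number of calls, 161 of 8072 genes (1.99%), and the genes that fell were led by rod photoreceptor genes. In the 6 whole-retina libraries SAG, the rod arrestin, stood at 2.81 to 21.0 UMIs per 10000 in the members (median 10.7), and in the 5 rod-depleted libraries at 0 to 1.92. The difference was -3.88 ± 0.40 (log2, adjusted p 1.69e-08 from limma), with no overlap. Rod transducin GNAT1 stood at 0.710 to 9.83 in whole retina and at 0 to 0.272 after rod depletion, also without overlap (-3.74 ± 0.41, adjusted p 5.56e-08, limma). All 15 rod markers fell, whereas 81 genes (1% of those tested) fell in all; 14 of the 15 still passed without the DAPL1-set cells. The summed level of rod markers in members was 3.91 to 9.90 after rod depletion and 21.2 to 142 in whole retina.

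The 80 genes that rose after rod depletion (0.991%) held many that mark the DAPL1-set cells. DAPL1 itself stood at 7.61, 37.0, 13.3, 9.40 and 8.38 in the rod-depleted libraries and at 0 to 6.52 in whole retina, a rise of 3.18 ± 0.48 (adjusted p 3.67e-05, limma), and without those cells the difference was 0.71 ± 0.54 (adjusted p 0.626). APOE rose by 2.20 ± 0.33 with all members, and the difference was 0.45 ± 0.50 (adjusted p 0.779, limma) without them. Of the genes that rose, 63 lost the call without the DAPL1-set cells, 31 of them because they no longer passed the filter on low values. Of those that fell, 40 lost it, and 6 genes were called only without those cells. In all 64 of 7876 genes (0.813%) were then called and 58 were shared with the first set, 17 that rose and 41 that fell. Müller markers had 5 of 10 tested called higher with all members and 0 of the 7 still tested without the DAPL1-set cells.

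The 17 genes that rose both ways held mitochondrially encoded genes, haemoglobin and MALAT1. MT-CYTB stood at 104 to 171 UMIs per 10000 in rod-depleted and at 37.7 to 72.0 in whole-retina libraries, a rise of 1.33 ± 0.20 (adjusted p 3.05e-05, limma) without overlap. MT-ND1 and MT-ND2 rose by 1.19 ± 0.20 and 1.45 ± 0.23, and 6 of the 8 mitochondrially encoded genes tested were called with and without the DAPL1-set cells. HBB-BS, beta haemoglobin, rose by 3.35 ± 0.54; 33.1 of its UMIs per 10000 were in P14 NORM rod-depleted members and 10.1 in P17 OIR rod-depleted members, with 0 to 2.66 elsewhere. MALAT1 rose by 1.14 ± 0.21 (adjusted p 0.000890, limma).

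Outside the rod list, several neuronal genes fell with rod depletion in both sets, and the part of rod RNA in these falls was not tested. The microtubule protein MAP2 stood at 1.37 to 1.75 in rod-depleted and 2.76 to 7.13 in whole-retina libraries, without overlap (-1.49 ± 0.28, adjusted p 0.00133, limma). The transcription factor NEUROD1 fell by 1.58 ± 0.32 (adjusted p 0.0659 without P14 OIR rod-depleted replicate 1), the potassium channel KCND3 by 2.07 ± 0.47 (0.173 without P14 NORM whole retina) and the NMDA receptor subunit GRIN2B, a leading gene of cluster 8, by 1.64 ± 0.42. GRIN2B kept its call in 5 of 11 fits that each left out 1 library. Of 14 glycine and GABA transmission genes tested, 3 fell, among them the GABA-A receptor subunit GABRA3 (-1.30 ± 0.33); none of the 3 was called without the DAPL1-set cells (GABRA3 adjusted p 0.163, limma). PPP1R17 stood at 0.266 to 2.95 in rod-depleted and 1.14 to 3.03 in whole-retina libraries (-1.22 ± 0.38, adjusted p 0.0834, limma). The clusters took different shares of members in the 2 fractions, and shifts between clusters cannot be told apart from shifts within cells in these means. Members were also deeper in whole retina, at library medians of 909 to 3304 UMIs against 845 to 1501, and with cells thinned to 500 UMIs 72 genes were called.

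**Figure D5:**
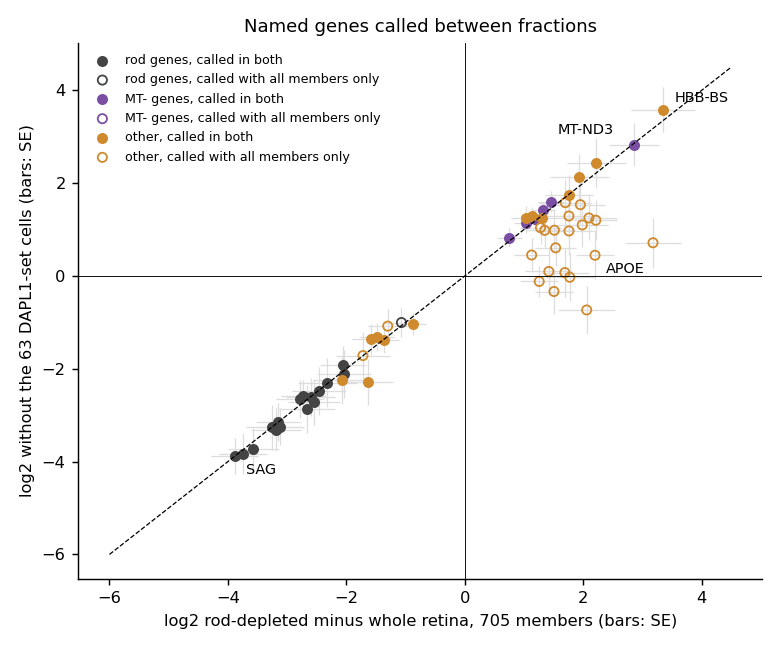
Rod-depleted minus whole-retina difference (log2 of level + 0.2) of the named called genes with all 705 members (x axis) and without the 63 DAPL1-set cells (y axis); bars are SE, filled points were called both ways and the broken line marks equality. SAG and the other rod genes lie on the line at lower left, while APOE falls from 2.20 to 0.45.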

How the data were processed

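Drop-seq of 12 libraries was deposited as 1 table of 21408 genes by 31271 cells. The deposited values are natural logs of 1 plus UMIs per 10000: undoing the log gives a total of 10000 in each cell, and 100% of the non-zero values then come within 0.05 of a whole UMI. The tools STAR 2.4.0 and bcl2fastq, with mm10 and GRCm38 as builds, are named per the submitters' processing notes. How strand, multiply mapped reads and doublets were treated is not stated in these notes, and no doublet caller was run. Columns were matched to libraries by name; 5799 columns in 7 sets matched none and were not used. The columns of P14 NORM whole retina carry replicate number 8 where the labels give 1, which makes it the least certain match.

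Per library, the mean over members of UMIs per 10000 was taken. Genes were tested if their mean reached 0.2 and if 3 or more libraries had any UMI, on log2(value + 0.2), with limma 3.58.1 (R 4.3.3), with trend, in a model of oxygen, age and fraction over 11 libraries; a second model had an oxygen term in each age, and the class test used the log2 difference between members and GABA-marked cells per library. P-values were adjusted by Benjamini-Hochberg over all genes tested, and a gene was called at 0.05. Shares were compared by exact permutation of libraries within strata. Members were clustered with scanpy 1.11.5 (1500 variable genes, 20 components, 15 neighbours, resolution 1.0), leaving out rod, lens, red cell and mitochondrially encoded genes. Rod-marked cells held at least 8 of 15 rod markers. The fits were tested on simulated data.

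The cells, lists and tests were chosen with earlier results of these data known. Named genes are those of the rule and its markers, the 10 of smallest p in each direction for oxygen and 5 for other comparisons, 2 to 4 per list and every called list member, the 20 per direction that differ most from GABA-marked cells and the 20 of highest level; others were named after their values were seen, and a few genes under this rule are not reported here.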

Additional observations from a re-analysis of the deposited data

Results flagged for a closer look

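The comparison of rod-depleted with whole-retina libraries gave a different result for the 2 amacrine classes, by a test of the difference itself. Glycinergic cells made up 1.63% ± 0.579 (SD, n = 5) of rod-depleted and 1.55% ± 0.434 (n = 7) of whole-retina cells at 500 UMIs, and GABA-marked cells 1.07% ± 0.369 and 4.98% ± 1.11. The log2 ratio of the classes differed by 2.22 between the fractions within age and oxygen (two-sided exact permutation p = 0.00833, the smallest possible; adjusted over 3 comparisons 0.025), and by 2.11 to 2.38 when each library was left out in turn. The members differ in makeup between the fractions: 44 of 285 rod-depleted and 19 of 420 whole-retina members were DAPL1-set cells, and without them the difference was 2.17 (exact permutation p = 0.00833).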

How the results depend on the processing

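Counts of called genes depended on which cells and libraries were used. For oxygen, 0 genes were called with all members; the count was 1 with median centring, with PAX6 not counted or with cells of at least 500 genes, 2 with cells thinned to 500 UMIs or without the DAPL1-set cells, 3 with at least 2 SLC6A9 UMIs, 4 with libraries weighted by cells and 6 without cells holding any of a few bipolar or glial markers. MT2 was among the calls in 11 of 28 alternatives and MT1 in 3. For age (6 genes) the count was 0 with a pseudocount of 0.05, with no filter or with a minimum of 5 cells, 2 with a minimum of 30 cells or with PAX6 not counted, 10 with at least 2 SLC6A9 UMIs, 18 without such marker-holding cells and 37 weighted. For fraction (161 genes) it was 18 with no filter, 36 with PAX6 not counted, 54 with a minimum of 30 cells, 60 with a minimum of 5, 64 without the DAPL1-set cells, 69 without such marker-holding cells, 70 with at least 2 SLC6A9 UMIs, 72 thinned, 80 with a pseudocount of 0.05, 273 with cells of at least 500 genes, 313 weighted and 464 with summed UMIs. For oxygen at P14 (0 genes) it was 2 thinned, 3 with no filter or without such marker-holding cells and 8 weighted. For oxygen at P17 (1 gene) it was 0 with a pseudocount of 1, a minimum of 30 cells or summed UMIs, 2 weighted, with at least 2 SLC6A9 UMIs, with PAX6 not counted or without the DAPL1-set cells, 3 without such marker-holding cells, 41 with a minimum of 5 cells and 177 with no filter. MT2, the 1 gene called at P17, was not among the 3 (adjusted p 0.127), the 177 (0.085) or the 1 gene called with thinned cells (0.482), and it missed the threshold with a minimum of 30 cells (0.107) and with summed UMIs (0.0841). For oxygen by age (0 genes) it was 1 weighted or without such marker-holding cells and 131 with no filter. The minimum of 5 cells and the removal of the DAPL1-set cells were chosen after seeing the data. The causes were not tested.

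With the replicate number as a block, the replicate block fit called 0 genes for oxygen, 10 for age, 174 for fraction and 0 for oxygen at P17, where MT2 had an adjusted p of 0.0513. The labels' numbers do not mark a shared animal, litter or run, and NORM groups hold 1 library each, so whether the numbers pair libraries could not be checked.

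Leaving out each library in turn gave 0 to 1 calls for oxygen, 0 to 11 for age, 54 to 193 for fraction, 0 to 5 for oxygen at P14, 0 to 2 at P17, 0 to 2 for oxygen by age and 0 to 4 for oxygen by class. Fraction calls were fewest without P14 OIR rod-depleted replicate 1. Without P17 NORM rod-depleted the effects at each age could not be fitted. The share difference ran from -0.714 to -0.485 points for oxygen, 0.22 to 0.487 for age and -0.105 to 0.173 for fraction; the log2 class ratio ran from -0.457 to -0.0494, 0.189 to 0.529 and 2.11 to 2.38. The oxygen difference in share had an unadjusted exact permutation p of 0.0417 without P14 NORM rod-depleted and 0.0208 without P14 OIR rod-depleted replicate 2.

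Some signs turned. The age difference in share was -0.351 without thinning and -0.00282 at 300 UMIs; the class ratio differed by 0.145 and 0.0747 for oxygen and by -0.0772 and -0.228 for age under the same settings. As a share of amacrine-marked cells, glycinergic cells were 13.2 points higher after rod depletion. For oxygen, HSPA8 gave -0.162, RPL3 -0.65 and RPS3A1 -0.598 without P14 NORM whole retina (the highest values with 1 library left out were 1.83, 1.99 and 1.82), PDE6G -0.0189 with at least 2 SLC6A9 UMIs, CABP5 0.515 without cells holding bipolar or glial markers, and TRPM1 0.307 with a minimum of 5 cells. For fraction, JUNB gave -0.22, CRYAB -1.04 and B2M -0.411 without cells holding those markers; JUNB -0.336, FOS -0.119, DUSP1 -0.0285 and CRYAB -0.733 without the DAPL1-set cells; and CRYAB -0.562 and PTN -0.174 with PAX6 not counted. Depth limits low genes most: 3 UMIs correspond to 0.0733 to 0.609 UMIs per 10000 in the 11 libraries.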

Other observations

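The 8 members of P17 NORM whole retina took no part in the gene tests. Of these, 5 lay in cluster 3, and CARTPT stood at 17.5 UMIs per 10000, above each of the 11 libraries tested. MT1 stood at 2.18, from 3 UMIs, and no MT2 UMI was seen among 8150, which allows up to 3.68 per 10000.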
